A study of Mus musculus with 30 samples.

Results

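The genes described here are 9 genes through which a cell receives a Hedgehog signal or responds to one. They are the receptor gene Ptch1, the gene of the ligand-binding antagonist Hhip, the co-receptor genes Gas1, Cdon and Boc, the transducer gene Smo, and the transcription factor genes Gli1, Gli2 and Gli3. They were chosen by name for these roles and are 9 of the 32316 gene symbols to which the deposited transcripts could be matched.

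RNA was measured in 10 cell populations sorted by flow cytometry from the small intestine (SI) and colon (LI) of untreated C57BL6/Nrj mice aged 8 to 10 weeks, with 3 libraries per population and 30 in all. Epithelium and outer muscle were removed first, and the sort excluded haematopoietic, endothelial, epithelial and glial cells by surface proteins. In both tissues pericytes were sorted as ESAM-1 positive and PDPN negative cells, and the small intestine also gave smooth muscle cells (SMC), which were ESAM-1 positive and PDPN positive. Fibroblasts (FB) lacked ESAM-1. In the small intestine they were split into PDGFRαhi FB, which were CD34 negative, CD34+ FB with intermediate PDGFRα, and Fgfr2+ FB with intermediate PDGFRα and no CD34. In the colon they were split into PDGFRαhi FB, sorted as PDPN positive and CD34 negative, CD90+ FB and Fgfr2+ FB, both PDPNhi and CD34 positive, and CD81+ FB with intermediate PDPN. The gates of Fgfr2+ FB and PDGFRαhi FB therefore differ between the tissues, and no colonic SMC were sorted.

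Hedgehog ligands bind Ptch1, which otherwise holds Smo inactive, and active Smo acts through the primary cilium to turn Gli proteins from repressors into activators. Transcription of Ptch1, Hhip and Gli1 rises when the pathway is active, so the receptor and the antagonist also limit the signal. In the gut the ligands come mainly from the epithelium and are received by the mesenchyme beneath it, where the pathway is known for its part in forming smooth muscle and villi.

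The values are estimated counts that the authors obtained by assigning reads to transcripts, summed here to genes. Their total per library lay between 2245052 (SI Fgfr2+ FB replicate 3) and 19096945, with a median of 9601683. Levels are given as counts per 1000000 counts of the library (CPM), after normalization across the 30 libraries, in the order of replicates 1, 2 and 3. Differences are log2 fold changes (first group over second) from 1 edgeR model with a mean for each population. Their standard error (SE) was derived from the F statistic of the test, as the absolute log2 fold change over its square root. A gene was called at a p below 0.05 after adjustment over the 17542 genes tested, and in comparisons between tissues also needed an absolute log2 fold change above 1.5. The p-values measure the spread between these libraries, which come from 3 independent sorts that are not tied to single mice. The study describes sorting both tissues from the same mice, but the labels do not say which libraries share mice, so the p-values treat all libraries as independent.

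Within a tissue, each gene that names a fibroblast population had its highest mean in that population. Across all 10 populations this did not hold for Cd34, which was highest in LI CD81+ FB, or for Thy1, which encodes CD90 and was highest in SI pericytes. Markers of pericytes and SMC also appeared in other populations. Esam was at 22.3, 202 and 104 CPM in SI pericytes, 116, 91.9 and 149 CPM in SMC and 98.1, 218 and 106 CPM in LI pericytes, and at 1.74 CPM or less in each of the 21 fibroblast libraries. Notch3, a pericyte receptor, was at 5489, 7295 and 5746 CPM in SI pericytes and 2662, 4275 and 3309 CPM in LI pericytes. The summed level of 6 SMC markers was 21373, 17402 and 20864 CPM in SMC and 4584, 3105 and 3284 CPM in SI pericytes. LI pericytes had 10395, 11473 and 11422 CPM for the same sum, with Myh11 as the most abundant marker, so pericytes of both tissues carried SMC marker RNA and the colonic ones more of it. Pericytes also had 1096, 547 and 703 CPM in the SI and 723, 855 and 591 CPM in the LI for 2 markers of interstitial cells of Cajal, for which the described sort names no exclusion. Nearly all of this was Ano1, with Kit at 8.37 CPM or less. Among other populations the sum was highest in LI PDGFRαhi FB, at 78.4, 77.1 and 83.4 CPM. Kit alone had its highest mean in SI PDGFRαhi FB, at 19.7 CPM, with 43.4 CPM at most. The sum of both markers there was 7.1, 10.8 and 43.5 CPM. The part of such cells in the contrasts with pericytes or among fibroblasts was not tested. SI PDGFRαhi FB had 2252, 3741 and 2594 CPM for the SMC sum, which overlaps the range of SI pericytes. They also had the highest mean of the pericyte marker Kcnj8, at 569, 710 and 427 CPM. Rgs5, the most abundant pericyte marker, was at 4125, 3821 and 7216 CPM in SMC, 3871, 4085 and 3447 CPM in SI CD34+ FB and 39052, 21877 and 34349 CPM in SI pericytes. For 6 fibroblast markers SMC had 5144, 5293 and 9346 CPM and SI pericytes 2568, 2554 and 1980 CPM, so fibroblast marker RNA moves with every contrast of SMC with pericytes, and its part in them was not tested. The Fgfr2+ FB marker Fgfr2 was at 450, 339 and 205 CPM in SMC and 4.51, 1.26 and 1.11 CPM in SI pericytes. Pdgfra was highest in PDGFRαhi FB (6207, 6854 and 6491 CPM for the SI, 2389, 2399 and 2546 CPM for the LI). Fgfr2 was highest in the Fgfr2+ FB of its tissue, at 1470, 1983 and 1490 CPM and at 504, 458 and 457 CPM.

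Some libraries stood apart. Replicate libraries correlated across genes with a Pearson coefficient between 0.722, in SI pericytes, and 0.972. In SI pericytes replicate 1 the B cell marker Cd79a was at 200 CPM, against 0.884 and 1.60 CPM in replicates 2 and 3, and the 4 immune markers summed to 204, 4.80 and 24.4 CPM. LI pericytes replicate 2 had 96.4 CPM for the immune markers, mostly Lyz2, and 32.5 CPM for 5 epithelial markers, of which Epcam was at 0. SI pericytes replicate 2 had 28.9 CPM for the epithelial markers, mostly Vil1 with Epcam and Krt8 at 0, against 0.215 and 0.615 CPM in replicates 1 and 3. SMC replicate 3 had 180 CPM for 3 endothelial markers, mostly Pecam1, against 39.3 and 41.4 CPM in replicates 1 and 2. The part of such cells in the results was not tested. In LI Fgfr2+ FB, replicate 3 had 146 CPM of Cd81 and 75.0 CPM of Pi16, against 30.6 and 10.8 CPM of Cd81 and 10.9 and 10.3 CPM of Pi16 in replicates 1 and 2.

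All 9 genes passed the filter of at least 6 counts in 3 or more libraries. An overall test for any difference among the 10 populations called 4 of them, Hhip (adjusted p = 2.36e-14), Ptch1 (9.86e-08), Gas1 (1.47e-06) and Cdon (0.000451), where 26.4% of all genes tested were called. Gli2 (0.0524), Gli3 (0.0549) and Gli1 (0.0866) were not called with all libraries, but were without any of 7, 6 and 2 single libraries. The lowest values were 0.00712 for Gli2 without LI pericytes replicate 2, 0.000490 for Gli3 without LI pericytes replicate 1 and 0.0116 for Gli1 without SI pericytes replicate 3. Comparing fibroblasts with pericytes called 2 of the 9 genes in the small intestine (19.9% of all genes) and 5 in the colon (18.8%). SMC against pericytes called 2 (10.9%), and the difference between tissues in the contrast of fibroblasts with pericytes called 1 (3.88%). The 4 comparisons among fibroblasts that called any gene of the set called 2 each. These were PDGFRαhi FB against the other fibroblasts in the small intestine (3.8% of all genes) and the colon (4.04%), CD34+ against Fgfr2+ FB in the small intestine (1.31%) and CD81+ FB against CD90+ and Fgfr2+ FB in the colon (1.78%). Between tissues, PDGFRαhi FB differed in 1 of the genes (0.963%).

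With edgeR, 4 tests called 0 of the 9 genes. For LI CD90+ against LI Fgfr2+ FB, where 0% of all genes were called, 1 of the 9 genes had an unadjusted p below 0.05, and DESeq2 called 0. For SI against LI Fgfr2+ FB (1.45% of all genes called), 2 had an unadjusted p below 0.05 and DESeq2 called 1, Hhip. For SI against LI pericytes (5.72%) these counts were 2 and 0. For the difference between tissues in the contrast of PDGFRαhi with Fgfr2+ FB (0.661%) they were 2 and 1. Of all 17542 genes tested, 569, 2219, 4230 and 1378 had an unadjusted p below 0.05 in these 4 tests, in the same order. DESeq2 called 37, 829, 2407 and 373 of all genes.

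Levels of different genes can be compared only per length of transcript. Averaged over the 10 populations and divided by effective length, Ptch1 had 204 CPM per kb, Hhip 87.1, Gli2 52.0, Smo 44.1, Gli3 42.3, Gli1 30.5, Gas1 13.9, Cdon 0.529 and Boc 0.104. The Hhip average rests on SMC, with 770 CPM per kb there against 40.7 CPM per kb in the next population, LI CD81+ FB.

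**Figure D1:**
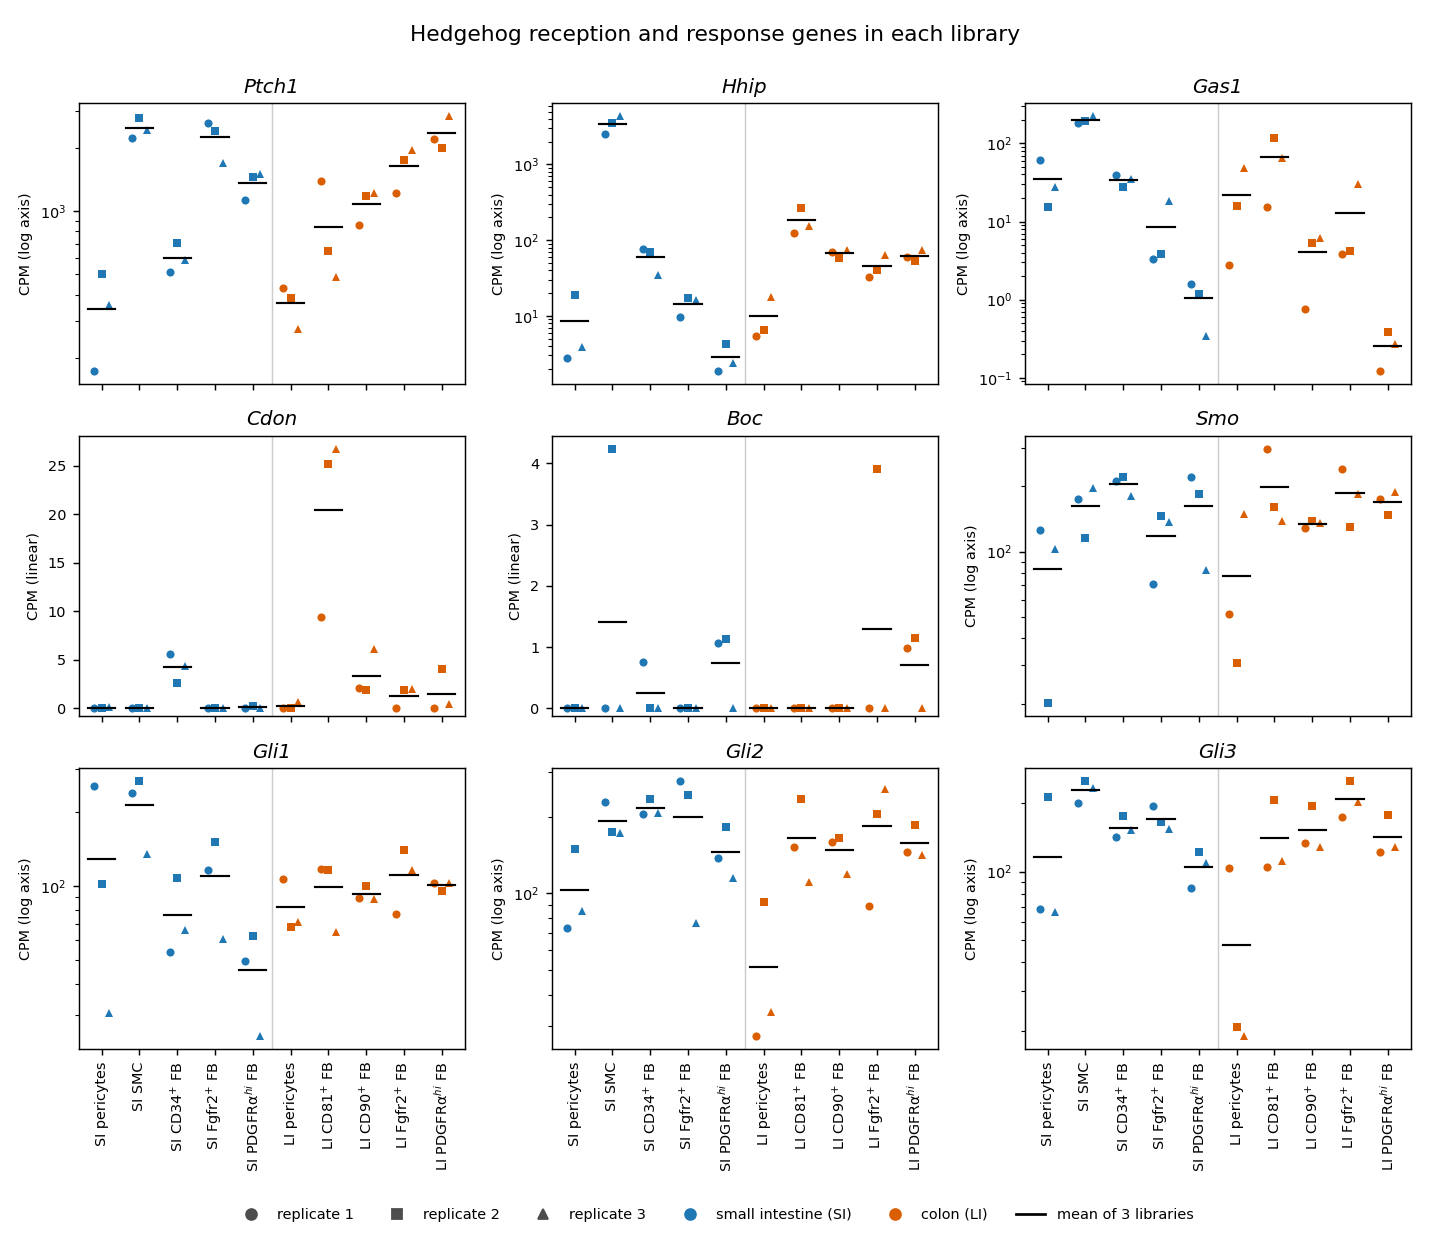
Level of each of the 9 genes in each library, in CPM on the vertical axis (a log axis, except for Cdon and Boc, which are on linear axes) and by population on the horizontal axis, with a line at the mean of 3 libraries. Hhip and Gas1 in the 3 SMC libraries sit above all 27 other libraries, and Smo and the Gli genes overlap between neighbouring populations.

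Ptch1, on chromosome 13 (63508328 to 63573598 on GRCm38), encodes the receptor of the ligands. In the small intestine it was at 2236, 2777 and 2443 CPM in SMC, 2643, 2415 and 1705 CPM in Fgfr2+ FB, and 1125, 1462 and 1511 CPM in PDGFRαhi FB. CD34+ FB had 513, 705 and 584 CPM and SI pericytes 173, 500 and 356 CPM. Every fibroblast and SMC library of the small intestine thus lay above every pericyte library, and among the fibroblasts CD34+ FB were lowest, with no overlap with either of the other subsets. In the colon Ptch1 was at 2211, 2011 and 2838 CPM in PDGFRαhi FB, 1222, 1750 and 1962 CPM in Fgfr2+ FB, and 858, 1182 and 1217 CPM in CD90+ FB. LI CD81+ FB had 1399, 648 and 484 CPM and LI pericytes 430, 384 and 274 CPM. All 12 colonic fibroblast libraries lay above the 3 colonic pericyte libraries, and PDGFRαhi FB lay above the other fibroblasts. In the order of the 10 means, from SMC (2486 ± 273 CPM, SD, n = 3) to SI pericytes (343 ± 164 CPM, SD, n = 3), 8 of 9 neighbouring pairs overlapped, and the gap lay between SI CD34+ FB and LI pericytes.

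Fibroblasts had more Ptch1 than pericytes by a log2 difference of 1.84 (SE 0.311, adjusted p = 7.16e-05) in the small intestine and 1.92 (SE 0.308, adjusted p = 2.89e-05) in the colon. SMC, which also carried more fibroblast marker RNA, had more than pericytes by 2.86 (SE 0.363, adjusted p = 2.01e-06). These 3 calls held in every fit that left out 1 of the 30 libraries. The difference between the tissues in the contrast of fibroblasts with pericytes was -0.08 (SE 0.384) and was not called. In bulk RNA of sorted cells, fewer cells that express a gene and less RNA of it per cell cannot be told apart, here and in every result that follows.

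Among small intestinal fibroblasts, Ptch1 was lower in CD34+ than in Fgfr2+ FB by a log2 difference of -1.91 (SE 0.350, adjusted p = 0.00242), also without any 1 library. LI PDGFRαhi FB had more Ptch1 than the other colonic fibroblasts by 1.04 (SE 0.262, adjusted p = 0.0167). That call was lost without LI PDGFRαhi FB replicate 1 (1.08, adjusted p = 0.0586), without replicate 3 of the same population (0.88, adjusted p = 0.172), and with counts scaled from TPM and length (0.94, adjusted p = 0.0853). Without LI CD81+ FB replicate 1, the highest of its population, Ptch1 was lower in CD81+ FB than in CD90+ and Fgfr2+ FB (-1.24, adjusted p = 0.0378), whereas with it the difference was not called (-0.66, adjusted p = 0.346). Between tissues, the 3 SI PDGFRαhi FB libraries lay below the 3 LI ones, but the difference of -0.79 (SE 0.340, adjusted p = 0.622) was not called.

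Hhip, on chromosome 8 (79965851 to 80058006), encodes a membrane protein that binds Hedgehog ligands and keeps them from the receptor. SMC had 2517, 3506 and 4344 CPM. In the other small intestinal populations it was at 75.4, 70.8 and 34.9 CPM in CD34+ FB, 9.56, 17.3 and 16.3 CPM in Fgfr2+ FB, 2.79, 18.9 and 3.94 CPM in pericytes, and 1.88, 4.23 and 2.41 CPM in PDGFRαhi FB. The SMC libraries were therefore far above all 27 others, the highest of which had 269 CPM, and SI PDGFRαhi FB had the lowest mean of the 10 populations. In the colon CD81+ FB had 126, 269 and 153 CPM, CD90+ FB 69.8, 58.2 and 73.3 CPM, and PDGFRαhi FB 60.1, 53.5 and 73.9 CPM. LI Fgfr2+ FB had 32.9, 40.8 and 64.4 CPM, and LI pericytes 5.38, 6.55 and 17.9 CPM. CD81+ FB lay above the other colonic libraries, and every colonic fibroblast library lay above every colonic pericyte library. Of the 9 neighbouring pairs in the order of the means, 6 overlapped, and gaps followed SMC (3456 ± 915 CPM, SD, n = 3), LI CD81+ FB (183 ± 75.9 CPM, SD, n = 3) and LI Fgfr2+ FB (46.0 ± 16.4 CPM, SD, n = 3).

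SMC had more Hhip than SI pericytes by a log2 difference of 8.64 (SE 0.708, adjusted p = 1.39e-09), which ranged from 8.29 to 9.98 over the fits without 1 library. The difference of SMC from fibroblasts was not tested, and their means differed 134-fold. SI PDGFRαhi FB had less than the other SI fibroblasts (-3.34, SE 0.539, adjusted p = 0.000127) and less than LI PDGFRαhi FB (-4.42, SE 0.594, adjusted p = 3.79e-05), with no overlap in either comparison and both calls kept without any 1 library. The test of whether the tissue difference was larger in PDGFRαhi than in Fgfr2+ FB gave -2.74 (SE 0.748, adjusted p = 0.11), which was not called. It was called without SI pericytes replicate 1 (-2.83, adjusted p = 0.0409) and without replicate 2 of that population (-2.74, adjusted p = 0.0196), and by DESeq2 (-2.87, adjusted p = 0.0141). In Fgfr2+ FB the SI libraries also lay below the LI ones, at -1.68 (SE 0.528, adjusted p = 0.121), which was not called by edgeR, but was without SI pericytes replicate 2 (-1.68, adjusted p = 0.0325).

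LI fibroblasts had more Hhip than LI pericytes by 2.94 (SE 0.499, adjusted p = 6.31e-05), in every fit without 1 library. In the small intestine this difference was 0.65 (SE 0.446, adjusted p = 0.325), with overlapping groups. It was called without SI pericytes replicate 2 (1.99, adjusted p = 0.00408). The difference between the tissues in this contrast was called (-2.29, SE 0.606, adjusted p = 0.0304), but not without SI pericytes replicate 2 (-0.95, adjusted p = 0.335) or LI pericytes replicates 1 (-2.00, adjusted p = 0.0904) and 2 (-2.04, adjusted p = 0.0937). In SI pericytes replicate 2, 63.2% of the Hhip counts were assigned to a short transcript of 1173 bases, which took 16.9% over all libraries, and with counts scaled from TPM and length the difference of SI fibroblasts from SI pericytes reversed to -0.36 (adjusted p = 0.732). Under that scaling the difference between the tissues in the contrast was -4.15, which was called, while fitting only the libraries compared lost the call (-2.26, adjusted p = 0.0585).

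CD34+ FB had more Hhip than SI Fgfr2+ FB by 2.08 (SE 0.533, adjusted p = 0.0457). All 3 libraries lay above all 3, but the call was lost in 19 of the 30 fits without 1 library. It was also lost with RLE normalization (2.02, adjusted p = 0.0515), with only the libraries compared (2.00, adjusted p = 0.0547) and with counts scaled from TPM and length (1.8, adjusted p = 0.365). Among the libraries compared, those whose absence lost it were CD34+ FB replicates 1 (1.81, adjusted p = 0.228) and 2 (1.95, adjusted p = 0.154) and Fgfr2+ FB replicates 1 (1.84, adjusted p = 0.272), 2 (2.25, adjusted p = 0.107) and 3 (2.17, adjusted p = 0.122).

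LI CD81+ FB had more Hhip than LI CD90+ and Fgfr2+ FB by 1.72 (SE 0.422, adjusted p = 0.0269), with no overlap. The call was lost without CD81+ FB replicate 2 (1.33, adjusted p = 0.218), without CD90+ FB replicates 1 (1.73, adjusted p = 0.0618), 2 (1.67, adjusted p = 0.0732) or 3 (1.75, adjusted p = 0.0543), and without LI Fgfr2+ FB replicates 1 (1.62, adjusted p = 0.0806) or 2 (1.68, adjusted p = 0.0741). Counts scaled from TPM and length also lost it (1.70, adjusted p = 0.163).

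Gas1, on chromosome 13 (60174405 to 60177365), encodes a membrane-anchored co-receptor that helps ligands reach Ptch1. SMC had 183, 195 and 223 CPM. In the rest of the small intestine Gas1 was at 61.6, 15.3 and 27.4 CPM in pericytes, 39.4, 27.8 and 34.7 CPM in CD34+ FB, 3.35, 3.79 and 18.3 CPM in Fgfr2+ FB, and 1.61, 1.18 and 0.345 CPM in PDGFRαhi FB. SMC again lay above all 27 other libraries, and PDGFRαhi FB lay below every other small intestinal library. In the colon it was at 15.5, 118 and 65.3 CPM in CD81+ FB, 2.80, 15.6 and 47.8 CPM in pericytes, and 3.82, 4.19 and 30.3 CPM in Fgfr2+ FB. CD90+ FB had 0.757, 5.26 and 6.11 CPM, and PDGFRαhi FB had 1, 3 and 2 counts, or 0.123, 0.383 and 0.271 CPM. PDGFRαhi FB thus had almost none in the colon too and lay below every other colonic library, while replicates of the other colonic populations were widely spread. Of the 9 neighbouring pairs in the order of the means, 8 overlapped, and the gap followed SMC.

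The low level in PDGFRαhi FB was called in both tissues. In the small intestine it differed from the other fibroblasts by -3.98 (SE 0.991, adjusted p = 0.0155). This call was lost without any of its 3 libraries, at -4.37 (adjusted p = 0.0539) without replicate 1, -4.10 (adjusted p = 0.0833) without replicate 2 and -3.58 (adjusted p = 0.123) without replicate 3. In the colon it was called at an adjusted p of 0.00145, also in every fit without 1 library. Since LI PDGFRαhi FB had 6 counts in all, the colonic difference is given as ratios with 95% counting intervals, which cover counting error only. Gas1 was 272 times as high in CD81+ FB (125 to 742), 47.5 times in Fgfr2+ FB (21.8 to 129) and 14.5 times in CD90+ FB (6.67 to 39.6). Each ratio moved when single libraries were left out. That of Fgfr2+ FB was 15.6 (7.18 to 42.6) without replicate 3, which held 273 of the 353 counts. That of CD81+ FB ranged from 154 without its replicate 2 to 370 without its replicate 1, and that of CD90+ FB from 10.7 without its replicate 3 to 22.1 without its replicate 1.

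LI CD81+ FB had more Gas1 than LI CD90+ and Fgfr2+ FB by 3.2 (SE 0.755, adjusted p = 0.0198), although the groups overlapped. The call was lost without CD81+ FB replicate 2 (2.49, adjusted p = 0.160), CD90+ FB replicate 1 (2.96, adjusted p = 0.0618) and Fgfr2+ FB replicates 1 (2.99, adjusted p = 0.0657) or 2 (2.99, adjusted p = 0.0680), and when only the libraries compared were fitted (adjusted p = 0.0506). Without Fgfr2+ FB replicate 3 the difference was 4.04 (adjusted p = 0.00513). In that library the 7 markers of CD34+, CD81+ and CD90+ FB summed to 2807 CPM, against 1883 and 1757 CPM in replicates 1 and 2. Most of the sum was Igfbp5, with means of 1482 CPM for it and 2149 CPM for the sum. Igfbp5 had its highest mean in LI pericytes, at 1563 CPM. None of the 7 was at 0 in all 3 LI Fgfr2+ FB libraries. In CD81+ FB, replicate 2, the highest in Gas1 and Hhip, had 15.9 CPM for 3 mesothelial markers, nearly all Wt1 with Upk3b at 0, against 0.312 and 2.08 CPM in replicates 1 and 3. The study states that stripping the outer muscle also took away the mesothelium. The part of mesothelial cells or of other fibroblast subsets in these results was not tested.

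Against pericytes, Gas1 was lower in fibroblasts by -2.38 (SE 0.679, adjusted p = 0.0132) in the small intestine and -2.01 (SE 0.654, adjusted p = 0.0308) in the colon. The groups overlapped in both tissues, and the contrast averages subsets on the log scale, so that PDGFRαhi FB weigh as much as CD81+ FB. On the plain scale the mean of colonic fibroblasts was 0.943 of that of pericytes. The call was lost without SI pericytes replicate 1 in the small intestine (-1.65, adjusted p = 0.165). In the colon it was lost without LI pericytes replicate 3 (-0.74, adjusted p = 0.568) and without LI PDGFRαhi FB replicate 1 (-1.92, adjusted p = 0.0522), with a replicate block (-1.81, adjusted p = 0.0522) and with only the libraries compared (-2.04, adjusted p = 0.0613). SMC exceeded SI pericytes without overlap, but the difference of 2.53 (SE 0.945, adjusted p = 0.0821) was not called by edgeR, and was by DESeq2 (2.45, adjusted p = 0.0359) and without the filter on low counts (2.63, adjusted p = 0.0379). Of the 31-base stretches of Gas1, 18.2% also occur in Gm48488, a gene on the opposite strand that the deposited table does not hold. The libraries do not record strand, so reads of Gm48488 from these shared stretches would be counted as Gas1.

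Cdon, on chromosome 9 (35421128 to 35507652), and Boc, on chromosome 16 (44485049 to 44558897), encode related immunoglobulin-domain co-receptors of Ptch1. Cdon was at 9.37, 25.2 and 26.7 CPM in LI CD81+ FB, 5.63, 2.61 and 4.40 CPM in SI CD34+ FB, and 2.08, 1.88 and 6.11 CPM in LI CD90+ FB. It was at 0, 1.85 and 2.00 CPM in LI Fgfr2+ FB, 0, 4.08 and 0.407 CPM in LI PDGFRαhi FB, and 0.647 CPM or less in each pericyte library. SI PDGFRαhi FB had 5 counts in replicate 2 and 0 in the others, and SMC and SI Fgfr2+ FB had 0 in all libraries. LI CD81+ FB were therefore the only population whose 3 libraries all exceeded every other library of the 30, and within the small intestine Cdon was confined to CD34+ FB except for 6 counts. Of the 9 neighbouring pairs, 8 overlapped, and the gap followed LI CD81+ FB.

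Against 3 counts over a population, Cdon in LI CD81+ FB was at least 194.8-fold higher than in SI Fgfr2+ FB. In SI CD34+ FB it was at least 39.2-fold higher than in SI Fgfr2+ FB and at least 40.1-fold higher than in SMC. Without SI Fgfr2+ FB replicate 1 the floors against that population were 96.13 and 19.35. Without SMC replicate 2 the floor against SMC was 25.73. LI CD81+ FB had 71.5 times (95% counting interval 37.7 to 156) the level of LI pericytes, whose 9 counts were all in replicate 3, and at least 118.6 times without that library. In the edgeR fit of all libraries no comparison of populations was called for Cdon. The lowest adjusted p was 0.0848, for SI CD34+ against Fgfr2+ FB, which DESeq2 called (adjusted p = 0.0111) and edgeR called when only those 6 libraries were fitted (adjusted p = 0.0366). DESeq2 also called it in LI fibroblasts against LI pericytes (adjusted p = 0.0308), where edgeR gave 3.80 (adjusted p = 0.0950). Without LI pericytes replicate 3 edgeR called it too (adjusted p = 0.0317). The pericyte libraries left then had 0 counts, so no fold is given for that fit. Boc had 137 counts over all libraries, from the single Boc transcript in the files, and reached 6 counts in 7 of 30 libraries, with 4.24 CPM at most (SMC replicate 2). Its other values were 3.90 CPM in LI Fgfr2+ FB replicate 2 and 1.15 CPM or less elsewhere, with 0 in 23 libraries after rounding of the estimated counts, so no fold is given for it.

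Smo, on chromosome 6 (29735503 to 29761365), encodes the transducer that Ptch1 inhibits. Its small intestinal levels were 212, 221 and 181 CPM in CD34+ FB, 219, 185 and 82.2 CPM in PDGFRαhi FB, 174, 116 and 196 CPM in SMC, 71.3, 145 and 137 CPM in Fgfr2+ FB, and 126, 20.1 and 103 CPM in pericytes. In the colon it was at 298, 161 and 138 CPM in CD81+ FB, 241, 130 and 185 CPM in Fgfr2+ FB, 174, 147 and 188 CPM in PDGFRαhi FB, 128, 138 and 136 CPM in CD90+ FB, and 51.9, 30.8 and 150 CPM in pericytes. Both pericyte populations had the lowest means, with replicates that differed several-fold, and all 9 neighbouring pairs overlapped. With all libraries in the fit, edgeR called no comparison for Smo. The closest was LI fibroblasts against LI pericytes at 1.13 (SE 0.447, adjusted p = 0.0761), which was called by DESeq2 (1.11, adjusted p = 0.0424), without LI pericytes replicate 3 (2.04, adjusted p = 0.00635) and without SI pericytes replicate 2 (1.13, adjusted p = 0.0345).

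Gli1, on chromosome 10 (127329882 to 127341974), encodes an activator whose transcription is itself a common readout of the pathway. In the small intestine it was at 240, 267 and 134 CPM in SMC, 255, 102 and 30.5 CPM in pericytes, 116, 151 and 60.6 CPM in Fgfr2+ FB, 53.8, 108 and 66.4 CPM in CD34+ FB, and 49.3, 62.4 and 24.6 CPM in PDGFRαhi FB. In the colon it was at 76.6, 140 and 116 CPM in Fgfr2+ FB, 103, 95.5 and 103 CPM in PDGFRαhi FB, 117, 116 and 65.2 CPM in CD81+ FB, 89.0, 100 and 88.5 CPM in CD90+ FB, and 106, 67.8 and 71.3 CPM in pericytes. Gli1 was thus present in all 30 libraries, highest on average in SMC, and spread over SI pericytes almost as widely as over the other populations, with every neighbouring pair overlapping. The SI PDGFRαhi FB libraries lay below the LI ones, at a difference of -1.14 (SE 0.513, adjusted p = 0.667) that was not called.

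With all libraries no comparison was called for Gli1, but the contrasts with SI pericytes turned on single libraries. SI fibroblasts against SI pericytes gave -0.83 (SE 0.396, adjusted p = 0.142), -1.30 (adjusted p = 0.0123) without SI pericytes replicate 3 and, with the direction reversed, 0.16 (adjusted p = 0.886) without SI pericytes replicate 1. SMC against SI pericytes gave 0.73 (SE 0.509, adjusted p = 0.383), and 1.75 (adjusted p = 0.0290) without SI pericytes replicate 1, the library with the B cell marker. Of the 31-base stretches of Gli1, 5.3% are shared with Arhgap9 and Gm47200 on the opposite strand; Arhgap9 reached 11.6 CPM at most.

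Gli2, on chromosome 1 (118834132 to 119053619), encodes the main activator downstream of Smo. Its levels were 206, 236 and 207 CPM in SI CD34+ FB, 276, 245 and 76.8 CPM in SI Fgfr2+ FB, 229, 175 and 173 CPM in SMC, 137, 182 and 115 CPM in SI PDGFRαhi FB, and 73.4, 150 and 85.3 CPM in SI pericytes. In the colon they were 89.6, 205 and 257 CPM in Fgfr2+ FB, 152, 234 and 111 CPM in CD81+ FB, 146, 186 and 142 CPM in PDGFRαhi FB, 159, 166 and 119 CPM in CD90+ FB, and 27.5, 92.4 and 34.1 CPM in pericytes. Pericytes had the lowest mean in each tissue, but LI pericytes replicate 2 exceeded the lowest fibroblast library. LI fibroblasts had more Gli2 than LI pericytes by 1.67 (SE 0.406, adjusted p = 0.00369), 2.42 without LI pericytes replicate 2, and the call was lost with counts scaled from TPM and length (1.2, adjusted p = 0.174). SI fibroblasts against SI pericytes gave 0.84 (SE 0.391, adjusted p = 0.133), which was not called. SI against LI pericytes gave 1.00 (SE 0.46, adjusted p = 0.178), 1.71 (adjusted p = 0.0415) without LI pericytes replicate 2 and 0.35 (adjusted p = 0.824) with counts scaled from TPM and length. SMC against SI pericytes gave 0.91 (adjusted p = 0.210), and 2.23 (adjusted p = 0.0497) under that scaling.

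Gli3, on chromosome 13 (15463235 to 15730026), encodes the main repressor of target genes when no ligand is present. It was at 201, 249 and 233 CPM in SMC, 194, 164 and 154 CPM in SI Fgfr2+ FB, 141, 175 and 151 CPM in SI CD34+ FB, 84.4, 122 and 109 CPM in SI PDGFRαhi FB, and 68.5, 213 and 66.6 CPM in SI pericytes. In the colon it was at 173, 249 and 202 CPM in Fgfr2+ FB, 133, 193 and 128 CPM in CD90+ FB, 121, 177 and 128 CPM in PDGFRαhi FB, 105, 205 and 112 CPM in CD81+ FB, and 103, 20.8 and 19.0 CPM in pericytes. All 12 colonic fibroblast libraries lay above the 3 colonic pericyte libraries, 1 of them by a small margin, and in the small intestine SMC lay above all 9 fibroblast libraries. LI fibroblasts had more Gli3 than LI pericytes by 1.73 (SE 0.431, adjusted p = 0.00450). Without LI pericytes replicate 1 the value was 2.99 (adjusted p = 1.31e-05), and with counts scaled from TPM and length the call was lost (1.46, adjusted p = 0.0570).

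For Gli3 the same contrast in the small intestine gave 0.28 (SE 0.399, adjusted p = 0.689) and reversed to -1.38 (adjusted p = 0.0366) with counts scaled from TPM and length. SMC against SI pericytes gave 0.97 (SE 0.485, adjusted p = 0.203), which became -0.01 under that scaling and 1.75 (adjusted p = 0.0275) without SI pericytes replicate 2. In that library 68.8% of the Gli3 counts were assigned to a short transcript of 2004 bases, which took 33.8% over all libraries. Another 2 tests of Gli3, not called with all libraries, were called without LI pericytes replicate 1. They were SI against LI pericytes (2.54, adjusted p = 0.00199, against 1.28 with it) and the difference between tissues in the contrast of fibroblasts with pericytes (-2.71, adjusted p = 0.00278, against -1.45 with it). Both were also called with counts scaled from TPM and length, at 2.74 (adjusted p = 0.0148) and -2.84 (adjusted p = 0.0251).

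**Figure D2:**
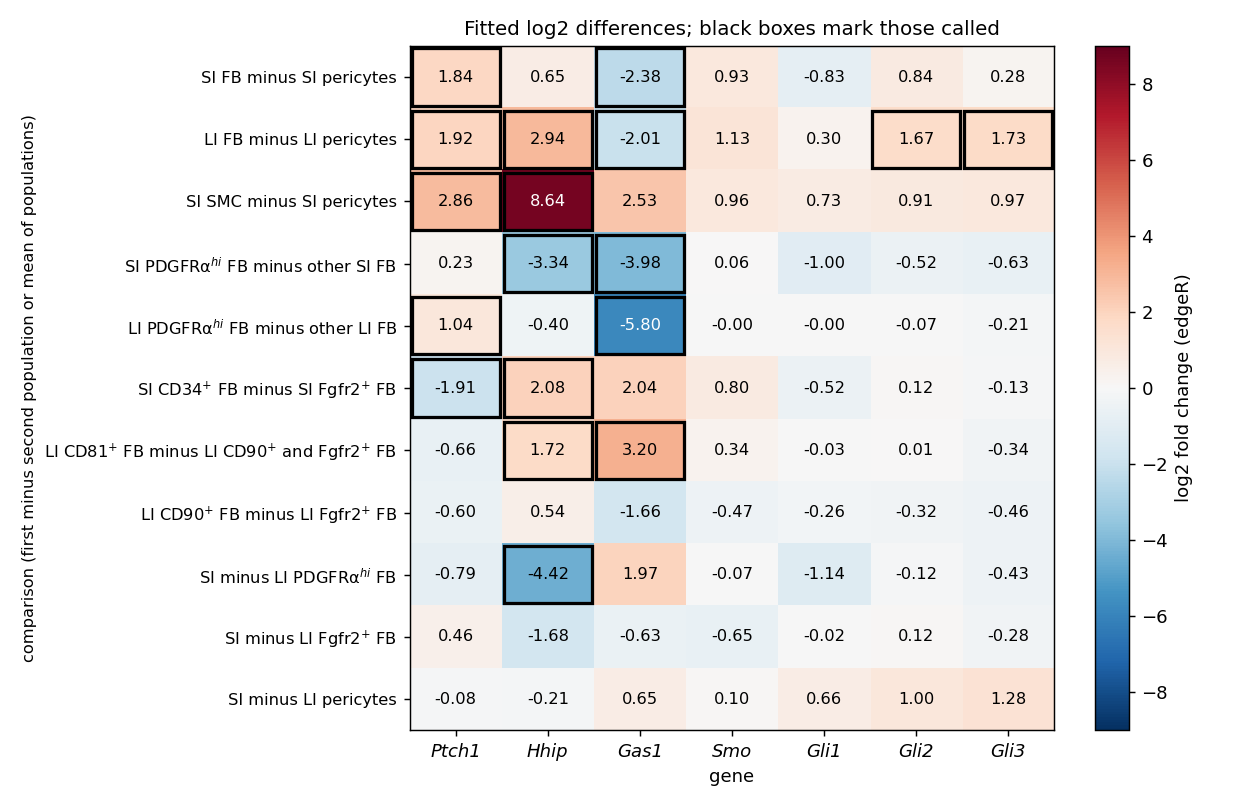
Fitted log2 fold changes of the 7 genes with counts in all libraries (horizontal axis) in the 11 comparisons of populations (vertical axis, first minus second), on a colour scale from blue (lower in the first) to red (higher in the first), with black boxes around those called. Hhip in SMC against SI pericytes has the largest value, 8.64, and no value of Smo or Gli1 is boxed; the Gas1 value of -5.80 rests on 6 counts in LI PDGFRαhi FB.

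Among the other genes of the pathway, 8 concern ligands and their release, and 6 of these were tested. RNA of the ligands themselves was scarce, with Shh at 21.9, 1.76 and 11.6 CPM in LI pericytes and at 9.91 CPM or less elsewhere. Dhh had 69.4 CPM in LI pericytes replicate 1 and 0.271 CPM or less in all others, and Ihh had 0.630 CPM at most. Scube1, whose product helps release lipid-bearing ligand, was at 1349, 968 and 642 CPM in SI Fgfr2+ FB, 20.0, 69.5 and 31 CPM in SI pericytes, 421, 794 and 571 CPM in LI Fgfr2+ FB, and 3.01, 1.26 and 1.58 CPM in LI pericytes. In both tissues it was thus higher in fibroblasts, and it was far lower in colonic than in small intestinal pericytes. Fibroblasts exceeded pericytes in Scube1 by 3.87 (SE 0.439, adjusted p = 1.34e-07) in the small intestine and 7.31 (SE 0.539, adjusted p = 2.44e-11) in the colon. SI exceeded LI pericytes by 4.36 (SE 0.495, adjusted p = 4.38e-06), a call kept without any 1 library and lost when only these 6 libraries were fitted (4.38, adjusted p = 0.338). That fit called 0 of all genes, against 1003 with all libraries. The difference between the tissues in the contrast of fibroblasts with pericytes was called for Scube1 (-3.44, SE 0.520, adjusted p = 0.000227), also without any 1 library.

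An overall test called 3 of the 6 genes tested in that list, where 26.4% of all genes were called. Among the 6, 1 gene was higher in SI fibroblasts than in SI pericytes (19.9% of all genes called), with a median log2 fold change of 1.35 against 0.02 over all genes tested. In the colon 2 were higher, Scube1 and Disp1, and 1 lower, Shh (median 0.22 against -0.01, with 18.8% of all genes called). Disp1, which exports ligand, gave 3.76 (SE 1.19, adjusted p = 0.0257), a call lost without LI pericytes replicates 2 (adjusted p = 0.10) or 3 (adjusted p = 0.0811), and was 8.63 without LI pericytes replicate 1. Shh gave -2.35 (SE 0.753, adjusted p = 0.0280) and was lost without LI pericytes replicates 1 (-1.54, adjusted p = 0.268) or 3 (-2.36, adjusted p = 0.0633), with no filter on low counts (-2.31, adjusted p = 0.0638) and with a replicate block (-2.20, adjusted p = 0.0542). In SMC against SI pericytes 2 were higher, Scube1 (2.42, SE 0.440, adjusted p = 0.000333) and its relative Scube2 (269, 127 and 334 CPM against 0.215, 0 and 8.61 CPM), with a median of 0.77 and 10.9% of all genes called. The difference in Scube2 was 6.33 (SE 1.8, adjusted p = 0.0210) and was lost without SI pericytes replicates 1 (5.88, adjusted p = 0.0753) or 2 (5.75, adjusted p = 0.0613). Without SI pericytes replicate 3 the pericyte libraries left had 0.215 and 0 CPM, so no fold is given for that fit. Both SMC calls were lost when only the 6 libraries compared were fitted, at 2.47 (adjusted p = 0.0851) for Scube1 and 6.38 (adjusted p = 0.0661) for Scube2. In that fit, which is used again below, all genes called fell from 1914 to 390. In LI CD81+ against CD90+ and Fgfr2+ FB, Scube1 was lower (-1.58, SE 0.389, adjusted p = 0.0277), but not without CD81+ FB replicates 2 (adjusted p = 0.112) or 3 (adjusted p = 0.140), CD90+ FB replicates 2 (0.0650) or 3 (0.0512), or Fgfr2+ FB replicate 2 (0.0757), nor with counts scaled from TPM and length (-1.54, adjusted p = 0.111).

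Of 7 other surface proteins, all tested, 1 was lower in SI fibroblasts than in SI pericytes (median -0.23), where 19.9% of all genes were called, and the overall test called 1 (26.4% of all genes). In the colon edgeR called 0 in that contrast (median -0.17, with 18.8% of all genes called). There 1 of the 7 had an unadjusted p below 0.05, and DESeq2 called 0. Of all 17542 genes tested, 5514 had an unadjusted p below 0.05 in that colonic contrast, and DESeq2 called 4073. Gpc3, a glypican that can bind ligand away from Ptch1, was low in PDGFRαhi FB of both tissues, at 4.96, 0.734 and 1.61 CPM in those of the SI and 13.1, 0.766 and 7.74 CPM in those of the LI. It was at 121, 87.9 and 85.8 CPM in SI CD34+ FB and 115, 134 and 90.0 CPM in LI CD81+ FB. SI pericytes had 77.3, 129 and 33.5 CPM, and SI fibroblasts fell below them by -2.17 (SE 0.584, adjusted p = 0.00885), a call lost without SI pericytes replicate 2 (-1.64, adjusted p = 0.0893).

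PDGFRαhi FB differed from the other fibroblasts in Gpc3 by -4.34 (SE 0.865, adjusted p = 0.00182) in the small intestine and -3.41 (SE 0.795, adjusted p = 0.00838) in the colon. The colonic call was lost without LI PDGFRαhi FB replicates 2 (-2.87, adjusted p = 0.0651) or 3 (-3.46, adjusted p = 0.0582). SMC had less Gpc3 than SI pericytes (-4.42, SE 0.898, adjusted p = 0.00125), a call lost when only these 6 libraries were fitted (-4.39, adjusted p = 0.0710). Gpc5 was called higher in SMC than in SI pericytes, but it was at 23.5 CPM in SMC replicate 3 alone and the call was lost without that library (2.07, adjusted p = 0.556) and with a replicate block (6.15, adjusted p = 0.0631).

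Of 22 genes of the cilium and cytoplasm, 2 were higher and 6 lower in SI fibroblasts than in SI pericytes (median -0.52), 0 higher and 3 lower in the colon (median -0.23), and 3 higher and 3 lower in SMC than in SI pericytes (median -0.24). All genes were called at 19.9%, 18.8% and 10.9% in these comparisons. The overall test called 6, near the 26.4% of all genes. Of the 8 calls in the small intestine, 4 were kept without SI pericytes replicate 1 and 6 without replicate 2, and 5 with counts scaled from TPM and length. Of the 3 in the colon, Prkar1a alone was kept in every fit, and 1 call was kept with a replicate block, with counts scaled from TPM and length, or without any of 7 single libraries, among them LI pericytes replicates 2 and 3. Of the 6 in SMC, 3 were kept without SI pericytes replicate 1, 1 without SMC replicate 3 and 0 when only those 6 libraries were fitted with edgeR. In that last fit all genes called fell from 1914 to 390. In PDGFRαhi FB against the other fibroblasts edgeR called 0 of the 22 in either tissue. At an unadjusted p below 0.05 there were 3 in the SI and 1 in the LI, and DESeq2 called 2 and 1. Of all 17542 genes tested, 1941 in the SI and 2078 in the LI had an unadjusted p below 0.05. DESeq2 called 1038 and 966 of all genes.

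Gpr161, a ciliary receptor that holds the pathway back, was at 183, 167 and 168 CPM in SMC and 3.22, 18.1 and 29.3 CPM in SI pericytes, without overlap (3.35, SE 0.719, adjusted p = 0.00217, and 0.0607 when only these libraries were fitted). Ift88, needed to build the cilium, was at 80.7, 52.0 and 121 CPM in SI pericytes and at 59.2 CPM or less in every other library. It was lower in SI fibroblasts by -2.16 (SE 0.452, adjusted p = 0.000906). Csnk1a1, a kinase that marks Gli proteins, was also called lower there, but its 1018 CPM in SI pericytes replicate 1 stood against 248 and 207 CPM in the others, and without that library the difference was -0.27 (adjusted p = 0.605). Btrc, which takes part in Gli degradation, was lower by -2.00 (SE 0.362, adjusted p = 0.000176), and by -1.16 without SI pericytes replicate 1. In the colon Prkar1a, the regulatory subunit of protein kinase A, was lower in fibroblasts (-1.47, SE 0.207, adjusted p = 3.90e-06).

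The overall test, which called 26.4% of all genes, called 7 of 9 further transcripts known to rise with Hedgehog signalling. In SI fibroblasts 3 were higher and 3 lower (median 0.11), and in LI fibroblasts 2 were higher and 3 lower (median 0.05). In SMC against SI pericytes 3 were higher and 2 lower (median -0.12). Of these, 2 were kept when only the 6 libraries compared were fitted, where all genes called fell from 1914 to 390. Of the 6 calls in SI fibroblasts, Foxf2 (1.71, adjusted p = 0.0459) was lost in 18 of the 30 fits without 1 library and with only the libraries compared (adjusted p = 0.0776), and 4 were kept without SI pericytes replicate 3. All genes were called at 19.9%, 18.8% and 10.9% in these comparisons. PDGFRαhi FB had 1 higher in the small intestine (median 0.24, with 3.8% of all genes called) and 3 higher and 1 lower in the colon (median 0.50 against -0.06 over all genes, of which 4.04% were called). Of these 4 colonic calls 1 was kept without LI PDGFRαhi FB replicate 2, and 2 without replicate 1 or replicate 3. Bmp4, a secreted growth factor, was at 2100, 1961 and 2322 CPM in LI PDGFRαhi FB, 590, 586 and 758 CPM in SMC, 6.66, 56.6 and 21 CPM in SI pericytes, and 26.4, 16.8 and 107 CPM in LI pericytes. Nr2f2, a nuclear receptor, ran the other way, with 3029, 1093 and 1270 CPM in SI pericytes, 870, 935 and 948 CPM in LI pericytes, and 317 CPM or less in every other library. So pericytes, low in Ptch1, were low in Bmp4 and high in Nr2f2, and no overlap with other populations was seen for either. Fibroblasts exceeded pericytes in Bmp4 by 5.16 (SE 0.601, adjusted p = 2.06e-07) in the small intestine and 5.05 (SE 0.592, adjusted p = 1.93e-07) in the colon, and fell below them in Nr2f2 by -5.09 (SE 0.432) and -3.61 (SE 0.387).

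The cell cycle gene Ccnd1 separated the PDGFRαhi FB, with 263, 319 and 436 CPM in the SI and 288, 200 and 374 CPM in the LI, against 185 CPM or less in every other fibroblast library. They exceeded the other fibroblasts of their tissue by 1.79 (SE 0.330, adjusted p = 0.000714) and 3.26 (SE 0.294, adjusted p = 1.01e-08). In fibroblasts against pericytes Ccnd1 was lower by -1.09 (SE 0.306, adjusted p = 0.0120) in the small intestine, lost without SI pericytes replicate 3 (-0.71, adjusted p = 0.141), and by -2.85 (SE 0.272, adjusted p = 4.14e-09) in the colon. The 2 contrasts differed by 1.76 (SE 0.455, adjusted p = 0.0273), but not without SI pericytes replicate 1 (1.43, adjusted p = 0.0774) or LI pericytes replicate 2 (1.3, adjusted p = 0.113). Among fibroblasts LI CD81+ FB had the least, at 9.29, 15.5 and 12.5 CPM, and fell below CD90+ and Fgfr2+ FB by -1.91 (SE 0.379, adjusted p = 0.00455). Ccnd2, its relative, was higher in LI CD81+ FB instead (1.8, SE 0.357, adjusted p = 0.00453), which was lost with counts scaled from TPM and length (1.38, adjusted p = 0.422). Foxf2, a transcription factor of gut mesenchyme, was at 158, 194 and 195 CPM in SMC and 5.15, 54.5 and 8.24 CPM in SI pericytes (3.00, SE 0.716, adjusted p = 0.00565, and 4.75 without SI pericytes replicate 2). That call was lost when only these 6 libraries were fitted (3.04, adjusted p = 0.129). It was at 120, 160 and 113 CPM in LI PDGFRαhi FB, above every other colonic library (2.07, SE 0.497, adjusted p = 0.0109, and 1.90, adjusted p = 0.0868, without LI PDGFRαhi FB replicate 2). Of the 9, edgeR called 0 in SI CD34+ against Fgfr2+ FB, where 3 had an unadjusted p below 0.05 and DESeq2 called 0. In that comparison 1859 of all 17542 genes tested had an unadjusted p below 0.05, and DESeq2 called 667.

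**Figure D3:**
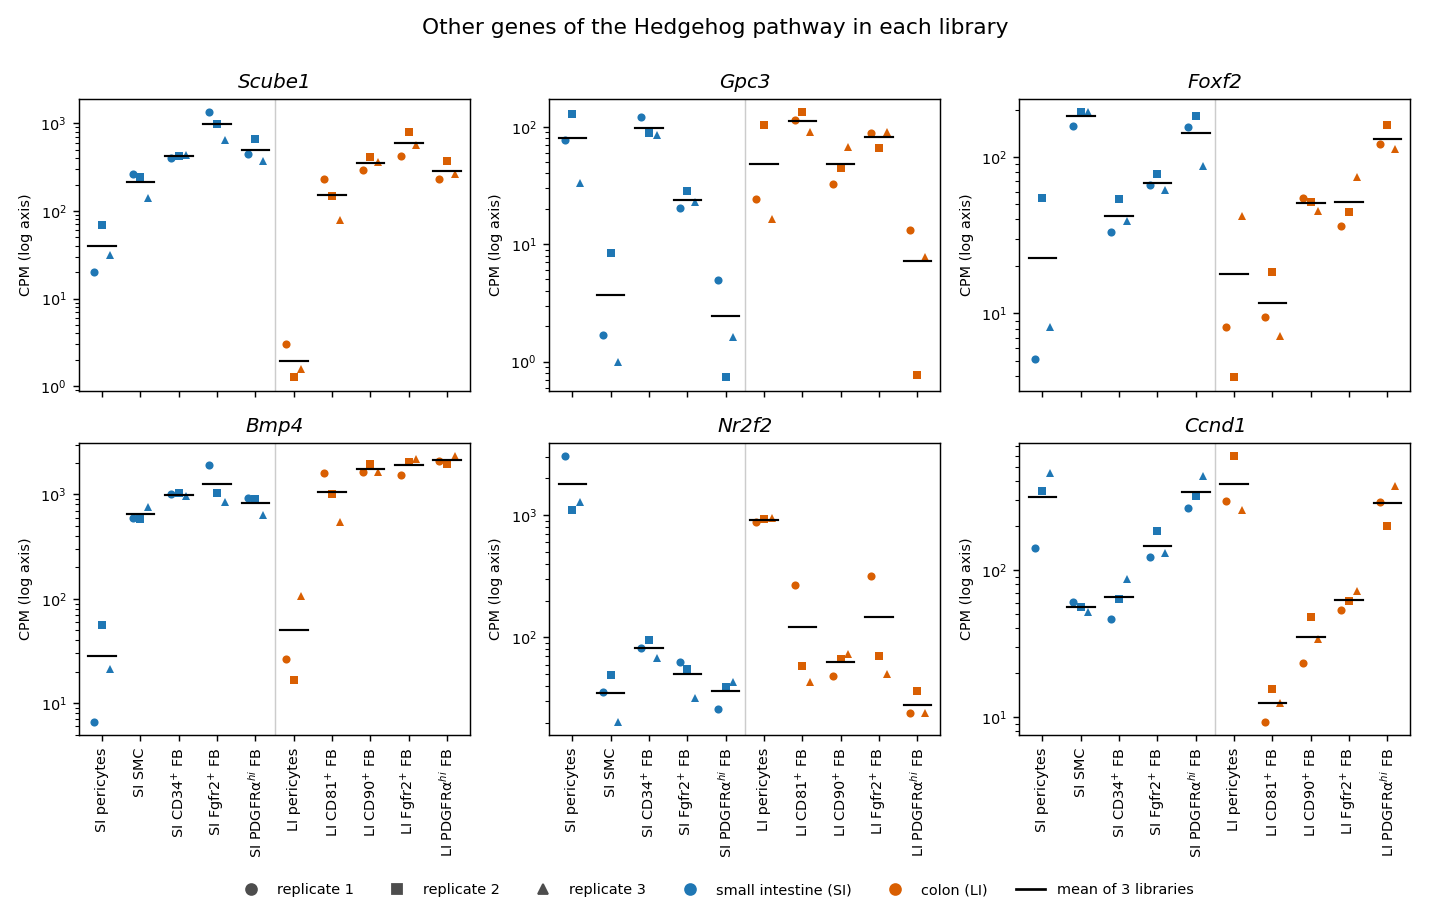
Level of 6 other genes of the pathway in each library, in CPM on a log axis, by population, with a line at the mean of 3 libraries. Scube1 and Bmp4 are low in pericytes of both tissues, Nr2f2 is high in them, and Gpc3 is low in SMC and in PDGFRαhi FB of both tissues.

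Likeness between patterns was described by Pearson's correlation of mean log2 CPM over the 10 populations, with no test. Among the genes of the set other than Boc, Gli2 and Gli3 were most alike (0.938), followed by Gli2 and Smo (0.845) and by Gli1 and Hhip (0.814), and Ptch1 and Gas1 were least alike (-0.298). Of 12574 genes compared, those most like Ptch1 were Rev3l (0.926), Pde7b (0.924) and Wdr3 (0.915), and among those most like Hhip were Cachd1 (0.929) and Qser1 (0.919). For Gas1 they were Lsamp (0.942), Uba1y (0.913) and Kalrn (0.908), and for Cdon Kcnk5 (0.963), 1810010H24Rik (0.958) and Slc6a13 (0.957). For Smo they were Ints5 (0.989), Larp6 (0.988) and Dtd1 (0.969). Gli1 was most like Gm28557 (0.922), Gal3st2c (0.908) and Senp6 (0.906), Gli2 most like Ntn1 (0.975), Gypc (0.964) and Rai2 (0.964), and Gli3 most like 2610021A01Rik (0.972), Dnajc2 (0.961) and Cyp2j9 (0.951). For Boc, whose counts round to 0 in most libraries, they were Vwa1 (0.924), Hsd17b10 (0.913) and Snrpf (0.901). All of these coefficients rest on 10 points and share the same 30 libraries.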

How the data were processed

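The authors sequenced amplified RNA as 50 bp single reads and assigned it to transcripts with kallisto 0.42.5 on GRCm38, after Trim Galore 0.4.0 and FastQC 0.11.2. The deposited files give estimated counts and TPM for 98492 transcripts. Counts of the 97116 transcripts matched to GENCODE were summed to gene symbols. Genes with at least 6 counts in 3 or more libraries were kept and tested with edgeR 4.0.16 in R 4.3.3 (TMM normalization, quasi-likelihood F test, 1 mean per population, adjustment by Benjamini and Hochberg). Comparisons of several populations weight their log means equally. The fit was tested on simulated data. Alternatives were RLE normalization, DESeq2 1.42.0, other filters, a replicate block, fewer libraries, counts scaled from TPM and length, and leaving out each library. Genes were named by rule: all 9 of the set, every ligand, up to 5 genes per list with most calls, and 3 most alike. The genes and lists were chosen with earlier results of these data known. Some genes are not reported here.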

Additional observations from a re-analysis of the deposited data

Results flagged for a closer look

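For 3 genes the contrast of fibroblasts with pericytes differed between small intestine and colon by a test of the difference itself. The log2 difference was -2.293 for Hhip (adjusted p = 0.0304), -3.440 for Scube1 (adjusted p = 0.000227) and 1.763 for Ccnd1 (adjusted p = 0.0273). The Hhip difference was no longer called without SI pericytes replicate 2 (-0.95, adjusted p = 0.335) or LI pericytes replicates 1 (-2.00, adjusted p = 0.0904) and 2 (-2.04, adjusted p = 0.0937). That of Ccnd1 was lost without SI pericytes replicate 1 (1.43, adjusted p = 0.0774) or LI pericytes replicate 2 (1.3, adjusted p = 0.113), and that of Scube1 was kept without any 1 library. With counts scaled from TPM and length the Hhip difference was -4.15 and still called, and with only the libraries compared it was -2.26 (adjusted p = 0.0585) and lost. The part of SMC marker RNA, which was higher in LI than in SI pericytes, was not tested.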

How the results depend on the processing

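For the 9 genes other than Boc, 52 values were followed, namely those called in any fit or with an unadjusted p below 0.05. Values outside this choice, among them those near 0, are not counted. Settings other than leaving out a library kept the direction and the call in 360 cases, gained a call in 25, lost 1 in 12 and reversed the direction in 3. Leaving out 1 library did so in 1490, 29, 40 and 1 cases. The reversals among these were, for fibroblasts against pericytes in the small intestine, Gli3 (-1.381) and Hhip (-0.361), and for SMC against pericytes Gli3 (-0.014), all with counts scaled from TPM and length, and Gli1 (0.157) without SI pericytes replicate 1, in a range from -1.302 to 0.157. The number of the 9 genes called moved as follows. In the overall test 4 became 7 with DESeq2 and 8 with no filter (4 to 6 without 1 library), while all genes called went from 4638 to 6516 and 5954. For LI fibroblasts against pericytes 5 became 7 with DESeq2, 4 with only the libraries compared or a block and 3 with scaled TPM (4 to 6). All genes there went from 3301 to 4073, 3351, 2783 and 3087. In the small intestine 2 became 3 with scaled TPM (1 to 3), as all genes went from 3491 to 3266. SMC against pericytes rose from 2 to 3 with DESeq2, no filter and scaled TPM (2 to 3), as all genes went from 1914 to 3311, 2085 and 1726. SI PDGFRαhi FB ranged from 1 to 2. LI PDGFRαhi FB fell from 2 to 1 with scaled TPM and with a fold threshold (1 to 2), as all genes fell from 708 to 610 and 615. CD34+ against Fgfr2+ FB went from 2 to 3 with DESeq2 and to 1 with RLE and with scaled TPM (1 to 2). All genes there went from 229 to 667, 225 and 174. CD81+ FB went from 2 to 1 with only the libraries compared and with scaled TPM (0 to 3), as all genes went from 313 to 418 and 272. SI against LI Fgfr2+ FB rose from 0 to 1 with DESeq2 (0 to 1), as all genes rose from 255 to 829. SI against LI pericytes rose from 0 to 1 with scaled TPM (0 to 1), as all genes fell from 1003 to 927. The subset difference between tissues rose from 0 to 1 with DESeq2 and no filter and to 2 with only the libraries compared (0 to 1). All genes there rose from 116 to 373, 159 and 208. The difference between tissues of fibroblasts from pericytes went from 1 to 0 with only the libraries compared and 2 with scaled TPM (0 to 1). All genes there went from 681 to 714 and 634. Where a library is left out, 2 remain and the fit pools the spread over populations. The cause of these changes was not tested.

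With a block for the number of the replicate, the overall test called 5 and LI fibroblasts against pericytes 4, where Gas1 was lost (-1.81, adjusted p = 0.0522). The block also lost Shh (-2.20, adjusted p = 0.0542) in that comparison. The labels do not say whether equal numbers mean 1 sort or the same mice. As a check of this pairing, deviations from the population mean were correlated between libraries of different populations. The mean correlation was 0.00754 for equal numbers and -0.00342 for different numbers, and 23 of 30 libraries correlated best on average with their own number. Most libraries were thus closest to those of their own number, though the correlations were small. The p-values of the fits without a block do not take this into account.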

Other observations

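The values are limited by 3 libraries per population, by amplified RNA and by SI pericytes, whose replicates differ most. Levels of RNA say nothing here of protein, of cilia or of ligand reaching the cells. Epithelium, the main source of ligand, was not sequenced, and no colonic SMC were sorted. PDGFRαhi and Fgfr2+ FB were gated differently in the tissues, so tissue and gate cannot be told apart in those comparisons. Boc lies near the limit of detection, as does Cdon in pericytes, SMC, SI Fgfr2+ FB and SI PDGFRαhi FB. Counting intervals and floors cover counting error only.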
